A study of Mus musculus with 10 samples.

Results

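The Myc, Max and Mxd network was followed through the transcriptomes of mouse prostate epithelium and of the prostate cancer line Myc-CaP, each with and without deletion of Arid1a, which encodes a DNA-binding component of SWI/SNF chromatin remodellers. Its 10 members (Myc, Mycn, Mycl, Max, Mxd1, Mxd3, Mxd4, Mxi1, Mnt and Mga) were taken by symbol from the 48897 rows of each table, and all 10 were found in both tables. The epithelium was sorted as EpCAM-positive and CD45-negative cells from prostates of 3-month-old C57BL/6 mice. It gave 3 libraries (A, B and C) without the Arid1a deletion, called control here, and 3 (A, B and C) of a genotype that adds Arid1aPC-/-. All 6 of these mice carry a further prostate deletion, through a Cre transgene under the Probasin promoter acting on floxed alleles, so the controls are not wild type. Probasin is a prostate epithelial gene, and the deletion is restricted to cells in which that promoter is active. Myc-CaP was derived from a prostate tumour of an FVB mouse that carried a c-Myc transgene. It gave 2 libraries with an empty vector (1 and 2) and 2 labelled Arid1a KO (1 and 2), made with a guide RNA in the vector pLentiCRISPRv2. Whether the 2 knockout libraries are separate lines, whether the cells were taken from culture, and whether reads of the transgene are counted in the row of the mouse Myc gene are not given in the sources used here.

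Myc proteins are basic helix-loop-helix leucine zipper factors that bind DNA as heterodimers with Max, mostly at the sequence called the E-box, and recruit coactivators to their targets. The Mxd proteins (Mxd1, Mxi1, Mxd3 and Mxd4) and Mnt compete for Max and for the same sites, and recruit the SIN3-HDAC corepressor. Mxd genes are typically active in cells that leave the cycle and differentiate, and Myc in cells that grow. Mga, a large protein with a T-box and a Myc-type domain, also pairs with Max and is the scaffold of a variant Polycomb complex, PRC1.6. Gain of MYC is common in prostate cancer.

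Because the network regulates genes through the E-box, the start-site windows of its own genes were read for that motif, and the windows that carry it are shown together with that of Mxd1, the member with the largest change in the epithelium. RefSeq windows on GRCm38.p6, from 250 bases before to 50 bases after a transcription start, were matched by symbol for 9 of the 10 members, all but Myc, and comprised 11 windows. Sequences run 5′ to 3′ on the strand of the gene, and capitals mark the E-box, CACGTG, which reads the same on both strands.
Mxd4, minus strand, chr5:34187661-34187960: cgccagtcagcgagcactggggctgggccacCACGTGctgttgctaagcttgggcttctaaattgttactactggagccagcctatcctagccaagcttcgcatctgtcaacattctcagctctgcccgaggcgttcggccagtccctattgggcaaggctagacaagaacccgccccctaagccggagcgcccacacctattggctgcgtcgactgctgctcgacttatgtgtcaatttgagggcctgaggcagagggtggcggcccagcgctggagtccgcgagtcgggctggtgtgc
Mnt, plus strand, chr11:74830674-74830973: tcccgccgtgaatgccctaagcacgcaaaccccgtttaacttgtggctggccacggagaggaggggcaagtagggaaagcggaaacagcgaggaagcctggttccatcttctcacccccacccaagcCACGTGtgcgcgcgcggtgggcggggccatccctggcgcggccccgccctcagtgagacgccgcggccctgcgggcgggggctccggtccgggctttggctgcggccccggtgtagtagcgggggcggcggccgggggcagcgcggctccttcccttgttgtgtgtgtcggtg
Max, minus strand, chr12:76962199-76962498: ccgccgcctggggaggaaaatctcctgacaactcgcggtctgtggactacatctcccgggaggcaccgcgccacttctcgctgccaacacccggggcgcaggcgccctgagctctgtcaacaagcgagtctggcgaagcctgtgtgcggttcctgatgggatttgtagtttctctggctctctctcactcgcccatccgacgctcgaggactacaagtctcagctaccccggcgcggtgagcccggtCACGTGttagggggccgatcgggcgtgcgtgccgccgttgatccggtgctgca
Mxd1, minus strand, chr6:86669110-86669409: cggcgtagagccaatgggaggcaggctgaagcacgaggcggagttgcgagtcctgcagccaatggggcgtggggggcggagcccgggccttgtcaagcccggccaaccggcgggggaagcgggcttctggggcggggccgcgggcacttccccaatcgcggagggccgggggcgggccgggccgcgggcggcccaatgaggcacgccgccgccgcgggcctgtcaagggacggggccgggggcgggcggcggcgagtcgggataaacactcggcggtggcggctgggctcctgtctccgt
The motif began at base -219 from the start site of Mxd4, at -123 for Mnt and at -3 for Max, and it was not in the 8 other windows. Of all 32851 windows of the same length, 7.15% held it. The AP-1 motif TGANTCA (7.81% of all windows) and the NF-kB motif, GGGAN followed by TTTCC (0.41%), searched on both strands, matched 0 member windows. The E2F motif TTTNGCGC (1.38%) matched at 3 positions, -183, -179 and -168, in the window of Mycn alone, and the first of these matches overlaps the next. A match describes letters, not occupancy. The genes themselves lie, in GENCODE on GRCm38, at chr15:61985391-61990374 (Myc, plus strand), chr6:86647042-86669161 (Mxd1, minus strand), chr5:34173883-34187720 (Mxd4, minus strand) and chr11:74830920-74845725 (Mnt, plus strand), and each value covers the exons of a gene as a whole. Mxd1 overlaps Gm44292 and Max overlaps Gm47218 on the same strand, so that reads of the shared part may have been left out or assigned to either gene.

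Levels are in RPKM (reads per length of the gene and per mapped read of the library, in fixed units) for the epithelium and in TPM (scaled by gene length to the same sum in each library) for Myc-CaP. Both are per length, so genes can be compared within a library, but the tables were normalized separately and levels were not compared between them. Spacing of the low values gave an estimated depth of 28840000 to 36500000 mapped reads in the epithelium, and depths within 1.15 times the lowest in Myc-CaP. Replicates correlated across genes with r between 0.987 and 0.9935 on the log2 scale, and genes are not independent replicates. Arid1a, the targeted gene, was at 21.9 to 27.8 RPKM in the control and 28.8 to 31.1 RPKM in the libraries labelled Arid1a KO. It was thus not lower in them (log2 fold change 0.25 ± 0.09, SE, limma adjusted p = 0.0540). Under 5 of 14 alternative settings it was called higher, with the lowest adjusted p, 0.0129, after rescaling libraries to the same sum. With a trend on gene length removed it was at 0.05 (adjusted p = 0.584). One value per gene cannot show the loss of an exon, so the group is called labelled Arid1a KO throughout. In Myc-CaP, Arid1a fell from 60.7 ± 0.36 to 39.9 ± 0.58 TPM (SD, n = 2 each, adjusted p = 0.0102), a call lost without any one of the 4 libraries (adjusted p 0.0984 to 0.111) at a similar fold. Epithelial markers were present in the sorted cells (Krt8 781 to 983 RPKM, Epcam 183 to 351 RPKM). In Myc-CaP, Epcam was listed at 0 in 3 of the 4 libraries and Krt18 in both empty vector libraries.

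In the epithelium the network leaned toward its antagonists in the libraries labelled Arid1a KO. Mxd1 was 2.40-fold higher, and Mnt, Mga and Mxi1 rose by smaller steps of 1.44-fold, 1.57-fold and 1.36-fold in mean RPKM. Mxd4 was 1.38-fold lower and Myc 1.32-fold lower, while Max, the shared partner, was not called. Of 10 members, 9 had a mean of at least 0.5 RPKM and were tested, and 6 were called at an adjusted p under 0.05, against 57.1% of all genes tested. The 4 called higher compare with 27.5% of all genes and the 2 called lower with 29.6%, so a count of this size was near the background of this comparison. Groups did not overlap for 6 of the 9, against 66.7% of all genes. By the study's thresholds, an unadjusted p under 0.05 and a 1.5-fold change, taken here on the log2(RPKM + 1) scale, Mxd1 alone passed, against 24.8% of all genes (11.8% higher and 13.0% lower). That scale understates low genes, and Mga, 1.57-fold higher in mean RPKM, was at 0.44 on it and at 0.63 with a pseudocount of 0.1, where it would pass. Replicates are separate samples in the labels, and where nothing more is said of their source the p-values measure only the spread between these libraries.

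**Figure D1:**
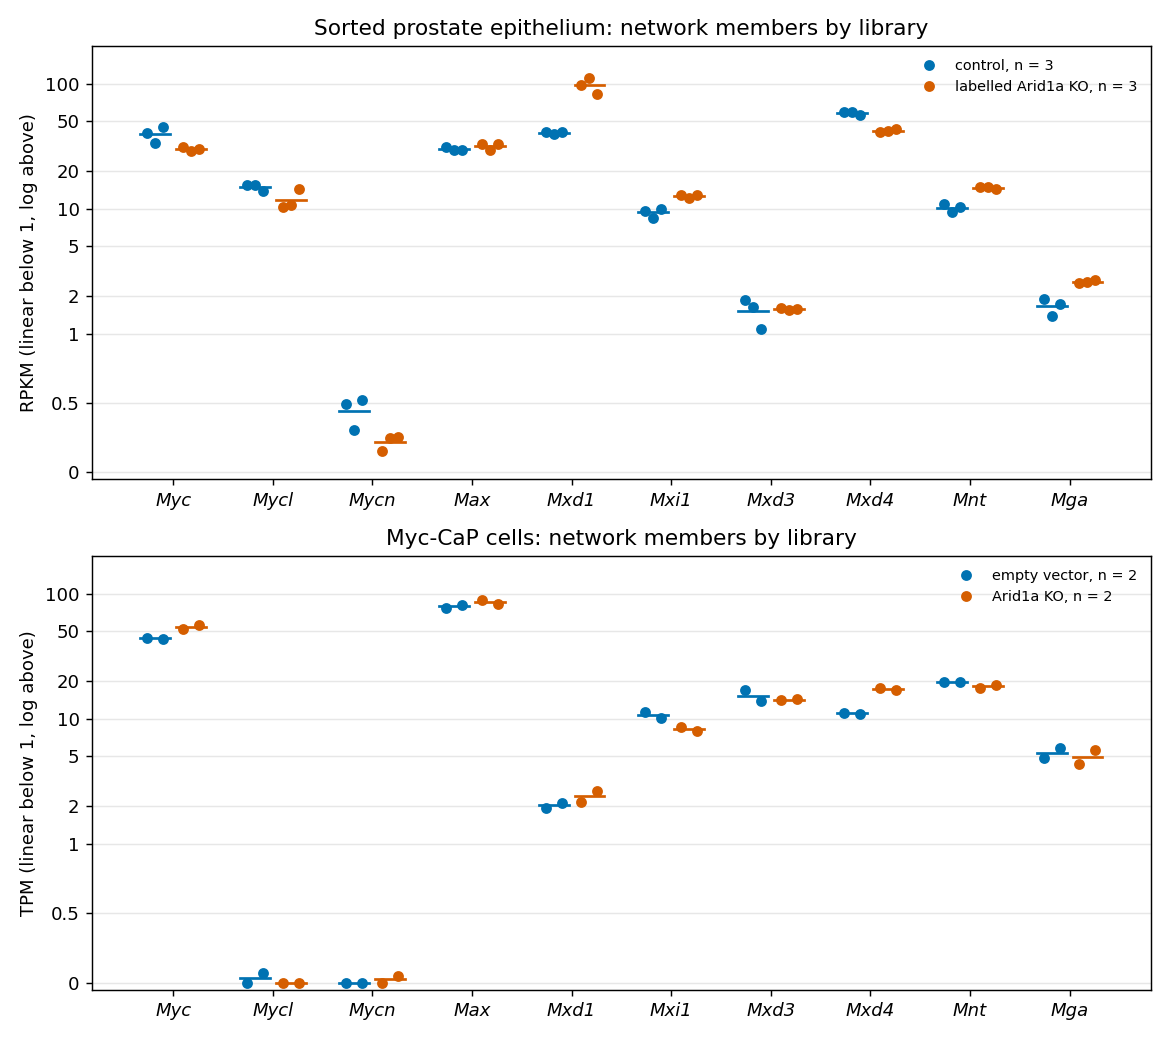
Level of each network member in every library, in RPKM for the epithelium (top) and TPM for Myc-CaP (bottom), on an axis that is linear below 1 and logarithmic above. Points are libraries and bars are group means; Mxd1 in the epithelium has all 3 libraries labelled Arid1a KO (82.9 to 110.4 RPKM) above all 3 control libraries (39.5 to 41.0 RPKM).

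Among the activators, Myc stood at 40.4, 33.6 and 44.6 RPKM in the control (libraries A, B and C in turn, here and in what follows) and at 30.97, 28.7 and 30.1 RPKM in the labelled KO. The groups did not overlap, and control library B lay nearest to the labelled KO. The difference was -0.38 ± 0.10 on the log2(RPKM + 1) scale (SE, adjusted p = 0.0147). The call was lost when libraries were rescaled to the same sum (-0.21, adjusted p = 0.167), when a trend with gene length was removed (-0.22, adjusted p = 0.13) and without labelled KO library B (-0.35, adjusted p = 0.0515). Mycl, the L-Myc paralog, was at 15.5, 15.4 and 13.7 RPKM in the control and 10.3, 10.7 and 14.4 RPKM in the labelled KO. Library C of the labelled KO lay inside the control range, and the difference of -0.32 ± 0.12 missed the threshold (adjusted p = 0.0557). Without that library it was -0.46 with an adjusted p of 0.00388. Mycn, the N-Myc paralog known from neuroendocrine and neural tumours, was the least abundant member, at 0.494, 0.308 and 0.519 RPKM in the control and 0.152, 0.246 and 0.254 RPKM in the labelled KO. Its mean was under the filter, and in a fit without a filter it gave -0.24 ± 0.08 with an adjusted p of 0.0614.

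Max, the dimerization partner that the members share, had 31.2, 29.2 and 29.4 RPKM in the control and 32.6, 29.3 and 32.7 RPKM in the labelled KO. The groups overlapped and the difference was 0.07 ± 0.07 (95% interval -0.08 to 0.23, adjusted p = 0.384). When libraries were rescaled to the same sum it was 0.24 and was called (adjusted p = 0.0241). That rescaling moved the median of all genes from -0.03 to 0.11 on the log2 scale, and the share of calls that were higher from 48.1% to 64.6%. Relative to the median of all genes, Max was at 0.10 before and 0.14 after it, and Myc at -0.35 and -0.32.

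Mxd1, the founding Mxd antagonist and a gene induced as myeloid and epithelial cells differentiate, was at 40.6, 39.5 and 41.0 RPKM in the control. In the libraries labelled Arid1a KO it was at 96.9, 110.4 and 82.9 RPKM. The control libraries were close together, and each labelled KO library was above all of them, library B the most. The difference was 1.23 ± 0.10 (adjusted p = 8.43e-05), larger in size than that of 94.6% of all genes tested. Mxi1, also called Mxd2, rose from 9.65, 8.45 and 9.83 RPKM to 12.9, 12.2 and 12.8 RPKM (0.41 ± 0.07, adjusted p = 0.00278), with no overlap. Mxd4 was the most abundant member in the control, at 59.1, 59.1 and 56.1 RPKM, and fell to 41.1, 41.6 and 43.5 RPKM (-0.46 ± 0.06, adjusted p = 0.000485). It was the one Mxd gene called lower, and its groups lay well apart. Mxd3, the Mxd gene linked to S phase, was low in all libraries, at 1.85, 1.64 and 1.09 RPKM in the control and 1.61, 1.55 and 1.58 RPKM in the labelled KO, with the second group inside the first (0.04 ± 0.13, adjusted p = 0.783).

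Mnt, the broadly expressed antagonist that unlike most Mxd genes is present in cycling cells, rose from 10.9, 9.45 and 10.2 RPKM to 14.9, 14.9 and 14.3 RPKM (0.49 ± 0.07, adjusted p = 0.000846). Mga rose from 1.87, 1.38 and 1.71 RPKM to 2.53, 2.58 and 2.70 RPKM (0.44 ± 0.09, adjusted p = 0.00548). Neither gene had overlapping groups. Mga has the longest exons of the network, 15340 bases in union, and with a trend of fold change on length removed its difference was 0.19 (adjusted p = 0.0468). Mxd1, Mxi1, Mxd4 and Mnt were called under each of the 14 alternatives run for them.

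**Figure D2:**
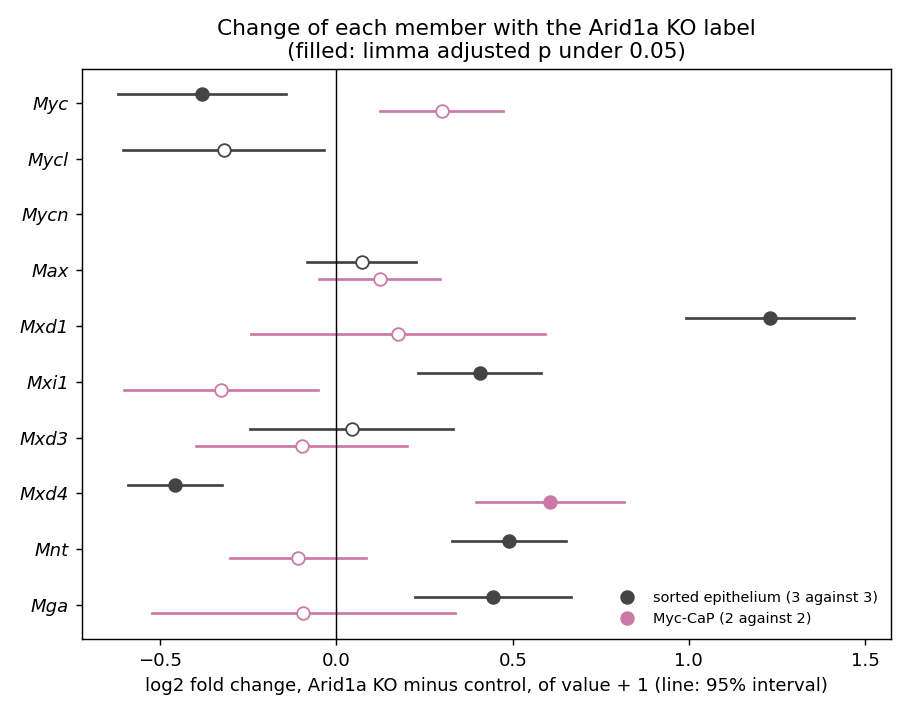
Log2 fold change of each member, Arid1a KO label minus control, on the log2(value + 1) scale, with 95% intervals from limma; dark points are the epithelium (3 against 3) and pink points Myc-CaP (2 against 2). Filled points passed an adjusted p of 0.05, and no point is drawn where the mean was under 0.5 (Mycn in both tables, Mycl in Myc-CaP).

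The order of levels changed with these differences. In the control, Mxd4 (58.1 ± 1.72 RPKM, SD, n = 3) was above Mxd1 (40.4 ± 0.80 RPKM) and Myc (39.5 ± 5.53 RPKM), whose libraries overlapped, followed by Max (29.9 RPKM), Mycl (14.8 RPKM), and Mnt (10.2 RPKM) and Mxi1 (9.31 RPKM), which overlapped. In the libraries labelled Arid1a KO, Mxd1 (96.7 ± 13.7 RPKM) was first and Mxd4 (42.0 ± 1.27 RPKM) next, and Max (31.5 ± 1.9 RPKM) and Myc (29.9 ± 1.16 RPKM) overlapped. Mxd1 was 0.920 to 1.17 times the level of Myc in control libraries and 2.75 to 3.85 times in labelled KO libraries. As a share of the summed RPKM of the 10 members, the Myc family went from 26.6% ± 1.68 to 17.2% ± 1.67, Max from 14.5% ± 0.37 to 13.0% ± 1.18, and the antagonists with Mga from 58.9% ± 1.37 to 69.8% ± 2.79. The ratio of summed antagonists to summed Myc family RPKM was 2.20, 2.42 and 2.04 in the control and 4.10, 4.62 and 3.52 in the labelled KO. These ratios do not depend on the scaling of a library, did not overlap between the groups and were not tested.

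**Figure D3:**
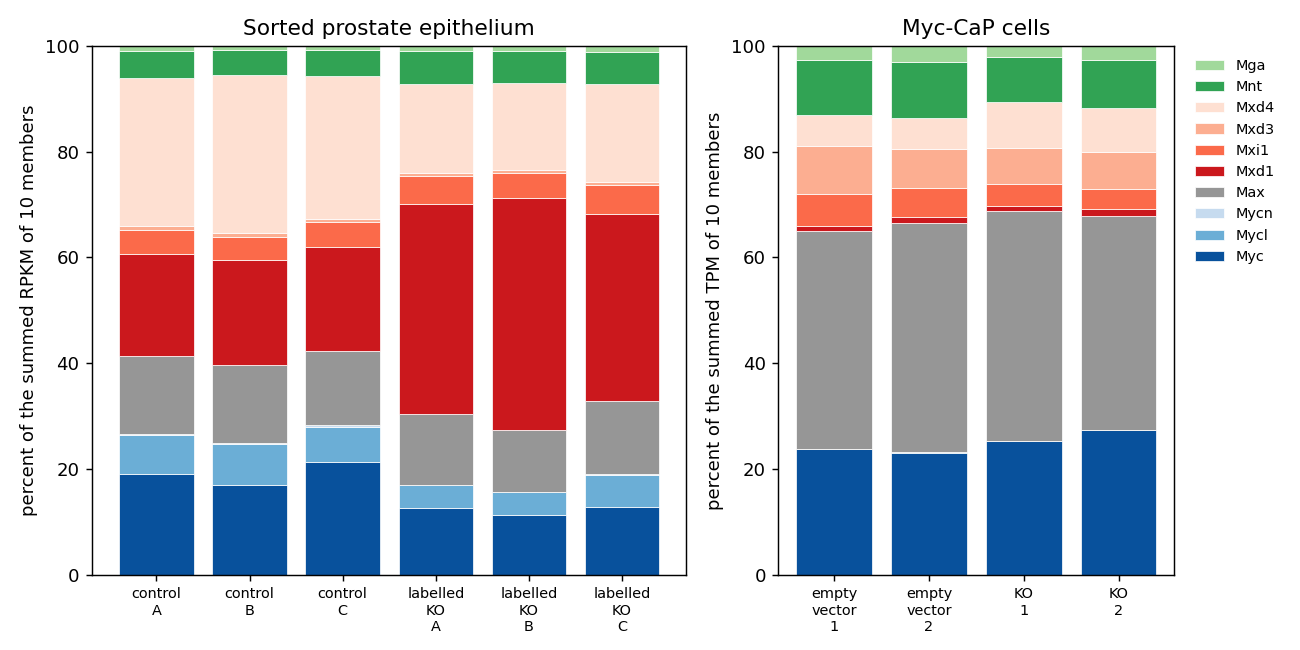
Share of each member in the summed level of the 10 members, in percent, with 1 bar per library, for the epithelium (RPKM, left) and Myc-CaP (TPM, right). The Mxd1 share (dark red) widens in the 3 libraries labelled Arid1a KO of the epithelium, where the antagonists with Mga hold 67.1% to 72.6%, and Max (grey) is the largest share in Myc-CaP.

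Several members are also expressed in blood cells, and markers of other cells moved with the label although the sort was set to CD45-negative cells. Ptprc, the gene of CD45 itself, was at 28.6 ± 2.30 RPKM in the control and 57.3 ± 0.98 RPKM in the labelled KO (SD, limma adjusted p = 5.36e-05). In bulk samples, a change in the number of cells of a type and a change in RNA per cell cannot be told apart. Over all genes tested, 27.5% were called higher and 29.6% lower, the background for each count here. Of 8 macrophage markers, 8 were called higher, and their summed level went from 2305 to 2692 RPKM in the control to 4130 to 4838 RPKM, led by Lyz2. Of 9 neutrophil markers, 6 were called higher (402 to 530 against 523 to 813 RPKM in sum). Of 6 leukocyte markers, 5 were called higher and 1 lower (792 to 819 against 942 to 1012 RPKM). Of 5 B cell markers tested, 4 were called higher (125 to 140 against 430 to 752 RPKM), and of 6 T cell markers 3 (21.7 to 27.3 against 31.9 to 36.5 RPKM). Squamous epithelial markers, led by Krt4, had 5 of 6 tested genes called higher (548 to 641 against 1229 to 1469 RPKM). Seminal vesicle markers had 6 of 6 called lower (18306 to 20707 against 623 to 1573 RPKM) and prostate luminal markers 5 of 6 lower (1546 to 1923 against 1329 to 1381 RPKM). Epithelial markers had 1 of 6 called higher and 2 lower (2978 to 3593 against 3254 to 3431 RPKM). Fibroblast markers had 0 of 6 higher and 3 lower (1683 to 2456 against 1401 to 1971 RPKM), smooth muscle markers 1 of 5 higher and 4 lower (114 to 133 against 96.0 to 118 RPKM), and endothelial markers 1 of 5 higher (28.6 to 39.2 against 39.7 to 50.6 RPKM). No list had a marker at 0 in every library. The part of these cells in the rise of Mxd1, Mnt, Mga and Mxi1 or the fall of Mxd4 and Myc was not tested.

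In Myc-CaP the network had a different balance, with Max and Myc on top and Mxd1 near the bottom. One member, Mxd4, passed the test, and it was higher in the knockout. Of 10 members, 8 had a mean of at least 0.5 TPM, and 1 was called against 6.43% of all genes tested (4.54% called higher and 1.89% lower). By the study's thresholds Mxd4 also passed alone, against 6.28% of all genes (4.62% higher and 1.66% lower). Groups did not overlap for 6 of 8 members, against 51.5% of all genes.

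Mxd4 was at 11.1 and 11 TPM in empty vector libraries 1 and 2 and at 17.8 and 17.0 TPM in knockout libraries 1 and 2. The difference was 0.61 ± 0.08 on the log2(TPM + 1) scale (adjusted p = 0.0220), and it was larger in size than that of 92.4% of all genes tested. Without any one library the difference was between 0.57 and 0.64, but the call was then lost in each case (adjusted p between 0.144 and 0.167), as it was with no filter on low values (adjusted p = 0.0600). Myc was at 44.6 and 43.3 TPM with the empty vector and 52.3 and 56.3 TPM in the knockout, without overlap, and the difference of 0.30 ± 0.07 missed the threshold (adjusted p = 0.0763). Mxi1 was at 11.3 and 10.1 TPM against 8.66 and 8.0 TPM, also without overlap (-0.33 ± 0.11, adjusted p = 0.165). Mnt was at 19.6 and 19.7 TPM against 17.7 and 18.6 TPM (-0.11, adjusted p = 0.470). Max, the most abundant member, was at 77.3 and 81.3 TPM against 89.7 and 83.3 TPM (0.12, 95% interval -0.05 to 0.30, adjusted p = 0.367). The groups of Mnt and Max lay apart as well, by little for Max.

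Mxd1 was at 1.94 and 2.12 TPM with the empty vector and 2.18 and 2.67 TPM in the knockout (0.17, 95% interval -0.24 to 0.59, adjusted p = 0.600). Markers of blood cells were near 0 in this line, with summed levels of 4.0 to 5.52 TPM for leukocyte, 0.823 to 2.92 TPM for macrophage and at most 0.435 TPM for neutrophil markers, of which 5 were listed at 0 in every library. T cell, B cell, endothelial and seminal vesicle markers summed to at most 0.272 TPM in any library, with 4, 3, 1 and 4 listed at 0 throughout. Fibroblast markers summed to 7.07 to 37.3 TPM with the empty vector and 5.89 to 16.5 TPM in the knockout, and smooth muscle markers to 1.28 to 10.5 and 1.85 to 6.29 TPM, with 0 called in either list. Epithelial markers summed to 0.849 to 1.16 TPM with the empty vector and 41.0 to 43.5 TPM in the knockout, nearly all of it Krt8, the 1 marker tested, which was called higher. Prostate luminal markers, which include Krt8, summed to 466 to 480 and 734 to 747 TPM, with 2 of 3 tested called higher, and squamous markers, mostly Krt6a, to 292 to 304 and 551 to 584 TPM, with 2 of 2 called higher. The part of these markers in the values of the network was not tested. Over all genes tested in Myc-CaP, 4.54% were called higher and 1.89% lower. Mxd3 (16.9 and 13.8 TPM against 14.0 and 14.4 TPM, adjusted p = 0.690) and Mga (4.86 and 5.86 TPM against 4.32 and 5.63 TPM, adjusted p = 0.802) had overlapping groups. Mycl was listed at 0 in 3 libraries and at 0.0669 TPM in empty vector library 2, worth about 2.09 reads. Mycn was listed at 0 in 3 libraries and at 0.0507 TPM in knockout library 2, worth about 1.27 reads.

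In order, Max (79.3 ± 2.82 TPM with the empty vector, 86.5 ± 4.59 TPM in the knockout, SD, n = 2 each) was followed by Myc (44.0 and 54.3 TPM) and Mnt (19.7 and 18.1 TPM) in both groups. With the empty vector Mxd4 (11.1 TPM) stood below Mxd3 (15.4 TPM) and overlapped with Mxi1 (10.7 TPM), whereas in the knockout Mxd4 (17.4 TPM) overlapped with Mnt and stood above Mxd3 (14.2 TPM). The ratio of summed antagonists to summed Myc family TPM was 1.47 and 1.44 with the empty vector and 1.24 and 1.18 in the knockout. The Myc family held 23.5% ± 0.45 and 26.3% ± 1.47 of the summed TPM of the members (SD, n = 2 each), and Max 42.3% and 41.9%.

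Set side by side, 4 of the 8 members tested in both tables had groups that did not overlap in either table and lay in opposite directions. Myc was lower by label in the epithelium (-0.38) and higher in the knockout of Myc-CaP (0.30, not called), and Mxd4 likewise (-0.46 and 0.61, both called). Mxi1 (0.41 and -0.33) and Mnt (0.49 and -0.11) lay the other way round, with the Myc-CaP value not called for either. Over all genes tested in both tables, 19.2% had that pattern and 17.3% did not overlap in either table and lay in the same direction, as 1 member, Mxd1, did (1.23 and 0.17). The difference between the systems was not tested because the tables were normalized separately.

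Around the network, 9 lists of partners and targets were counted in the same fits. Of 42 genes that Myc is known to activate, 15 were called higher in the labelled KO and 6 lower (median 0.08, against -0.03 for all genes), and 23 higher and 3 lower with libraries rescaled to the same sum (median 0.14 above that of all genes). The largest rises were in Odc1, the polyamine synthesis enzyme (40.0 ± 0.63 to 131 ± 16.0 RPKM, 1.69, adjusted p = 1.53e-05), and Ccnd2, cyclin D2 (14.7 ± 2.35 to 34.3 ± 3.11 RPKM, 1.18). The largest falls were in Dctpp1, a nucleotide pyrophosphatase (16.9 to 12.8 RPKM, -0.37), and Phb2, a prohibitin of mitochondria (75.8 to 59.2 RPKM, -0.35). Of 12 genes that Myc is known to repress, 5 were called higher and 2 lower (median 0.16), or 9 and 2 with rescaling. Cdkn1a, the cell cycle inhibitor p21, rose from 134 ± 7.72 to 262 ± 17.4 RPKM (0.96, adjusted p = 8.59e-05), and Thbs1, the matrix protein thrombospondin 1, from 208 ± 27.5 to 602 ± 75.1 RPKM (1.53). Gas1, a growth arrest gene, fell from 36.8 to 13.5 RPKM (-1.37), and Clu, clusterin, from 4164 to 1932 RPKM (-1.13). Activated and repressed targets thus both held genes called in each direction, and 50% and 58.3% of them were called against 57.1% of all genes.

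Of 12 proliferation genes, 11 were called higher and 0 lower (median 0.51), where 27.5% of all genes tested were called higher and 29.6% lower. Mki67 was at 4.50 ± 0.24 against 9.80 ± 0.32 RPKM (0.97, adjusted p = 4.66e-05) and Ccnb1 at 2.45 against 5.01 RPKM (0.80). With a minimum mean of 5 RPKM in place of 0.5, 7 of the 7 genes then tested were called. Of 10 hypoxia genes, 6 were called higher and 1 lower (median 0.34), with Vegfa at 50.1 against 106 RPKM (1.07), Ero1l, an oxidoreductase of the endoplasmic reticulum, at 10.2 against 18.6 RPKM (0.81) and Adm, adrenomedullin, at 16.9 against 10.4 RPKM (-0.65).

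Among partners, the SIN3-HDAC corepressor that the Mxd proteins and Mnt recruit had 1 of 9 genes called higher and 4 lower (median -0.15). That was 55.6% called, with 20%, 36.4% and 60% in the PRC1.6, coactivator and turnover lists below. Over all genes tested, 57.1% were called (27.5% higher and 29.6% lower), so these shares lay near or below the background. Hdac1, a histone deacetylase, fell from 50.1 ± 1.08 to 34.0 ± 2.38 RPKM (-0.55, adjusted p = 0.000458) and Rbbp7, a histone-binding subunit, from 88.4 to 57.5 RPKM (-0.62), while Sap30 rose from 20.3 to 25.5 RPKM (0.33). With rescaling the counts were also 1 and 4, and the median was 0.09 below that of all genes. Of 10 PRC1.6 partners of Mga, 1 was called higher (Tfdp1, the E2F partner, 15.4 to 19.9 RPKM, 0.36) and 1 lower (Ring1, a ubiquitin ligase, 19.8 to 12.8 RPKM, -0.60). Of 11 Myc coactivators and partners, 3 were called higher and 1 lower, or 6 and 0 with rescaling. Ccnt1, cyclin T1 (8.11 to 12.3 RPKM, 0.55), and Ep400, a chromatin remodeller (7.90 to 11.9 RPKM, 0.54), were the largest rises, and Kat5, an acetyltransferase, was lower (13.8 to 11.2 RPKM, -0.29). Of 10 genes of Myc protein turnover, 5 were called higher and 1 lower (median 0.29), with the ubiquitin ligase Huwe1 at 13.9 against 21.7 RPKM (0.61) and Cip2a, an inhibitor of the phosphatase PP2A, at 1.19 against 2.45 RPKM (0.65). In the MLX branch, the Max-like factor Mlx and its partners, 1 of 2 genes tested was called higher, the partner Mlxip (7.80 to 12.8 RPKM, 0.66). Mlx itself was not called (-0.18, adjusted p = 0.0659).

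In Myc-CaP, limma called 0 of 40 Myc-activated targets, against 6.43% of all genes tested. Of these targets 9 had an unadjusted p under 0.05, and their median was -0.03 against -0.01 for all genes. Cebpa, a differentiation factor, was the 1 of 9 repressed targets called (429 ± 3.06 to 555 ± 18.6 TPM, 0.37, adjusted p = 0.0267). Of 9 PRC1.6 partners Yaf2, a Ring1-binding subunit, was called lower (73.1 to 46.2 TPM, -0.65). Of 12 proliferation genes Ccnb1 was called lower (282 to 230 TPM, -0.29). Among these 12, 11 had a negative log2 fold change and 6 an unadjusted p under 0.05, with a median of -0.17 against -0.01 for all genes. Of 8 hypoxia genes Vegfa was called higher (33.9 to 45.3 TPM, 0.41) and Pfkfb3, a regulator of glycolysis, lower (126 to 81.5 TPM, -0.63). Of the corepressor, coactivator, turnover and MLX lists, 0 of 9, 0 of 11, 0 of 10 and 0 of 2 genes were called, with 3, 1, 3 and 0 at an unadjusted p under 0.05. No other list gene passed the adjusted threshold in this table, and 0 genes of any of the 9 lists were called when any one library was left out.

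**Figure D4:**
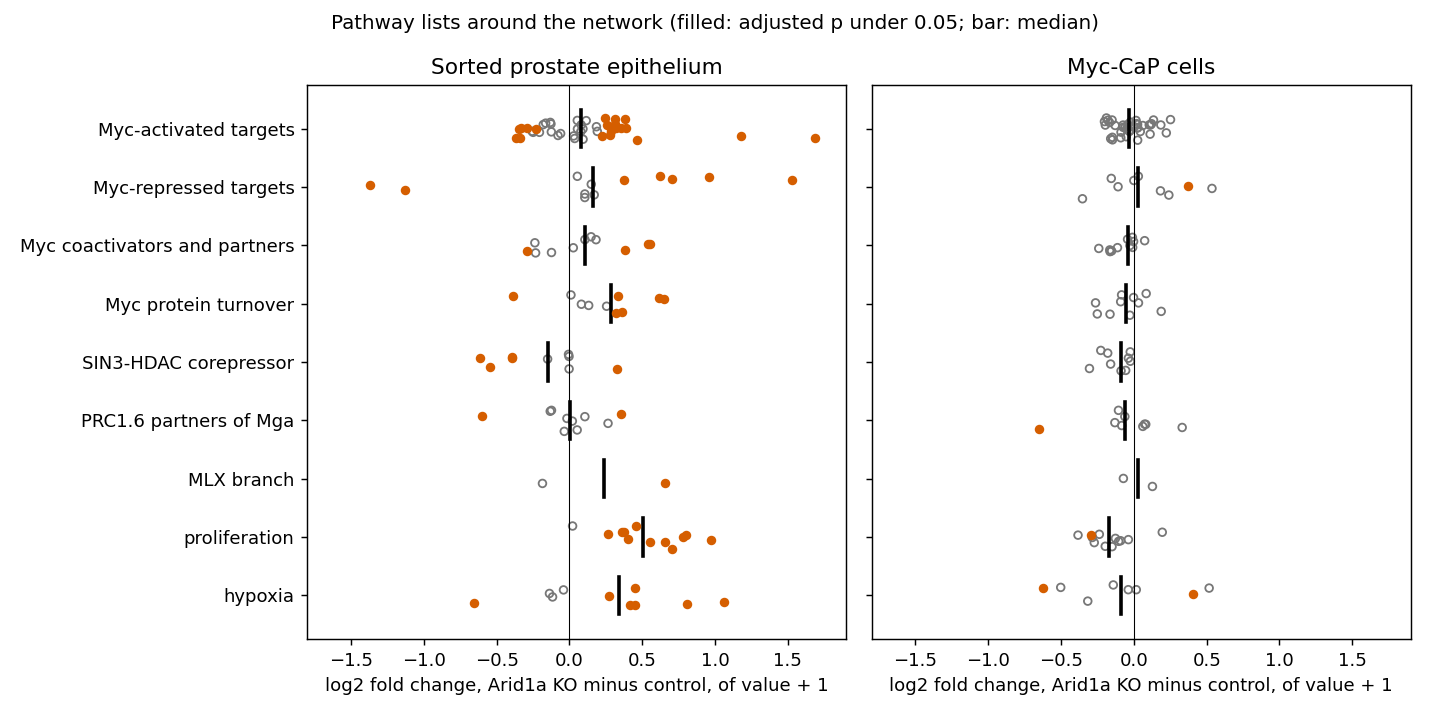
Log2 fold changes of the genes of 9 lists around the network, Arid1a KO label minus control, on the log2(value + 1) scale, for the epithelium (left) and Myc-CaP (right). Each point is a gene, filled where the adjusted p was under 0.05, and the bar is the median of the list; 11 of 12 proliferation genes are filled and to the right of 0 in the epithelium, and 1 of 12, to the left, in Myc-CaP.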

How the data were processed

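RNA-seq was measured in 10 libraries, grouped by the genotype field of the labels. The authors deposited the epithelium as RPKM and Myc-CaP as TPM, with 1 value per gene and library. Reads were aligned to GRCm38/mm10 with TopHat2 per the paper's methods, whereas the submitters' processing notes name HISAT2, HTSeq and DESeq2. Counting was strand-specific with HTSeq-count. The step from counts to RPKM or TPM, the gene lengths and the annotation are not given in the sources used here. These deposited values are not counts, and only 21.0% to 26.3% of the low values were whole multiples of 1 read (within 0.05 of a read), so no count model was fitted and no counting interval is given. Values of the tables of single samples and of the whole series were compared, and 0 differed.

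Values were transformed to log2(value + 1). Genes with a mean of at least 0.5 in a table were fitted with limma 3.58.1 in R 4.3.3 (lmFit, then eBayes with a trend, no covariate), with two-sided p-values, Benjamini-Hochberg adjustment across every gene tested, and a call at an adjusted p under 0.05. The scale understates changes of low genes. The smallest p an exact permutation test allows is 0.1 with 3 against 3 libraries and 0.333 with 2 against 2. The study tested counts, which these units do not allow. Exon lengths came from GENCODE on GRCm38. The scripts were tested on simulated data.

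The members, the 9 lists of partners and targets and the 12 lists of cell type markers were compiled from general knowledge and chosen with earlier results of these data known. All members are named, with the 2 largest rises and falls called in each list, except that the results of some single genes and the name of a deletion are not reported here. Such genes are still included in the list counts. The single markers named were chosen after their values were seen. Alternatives were another pseudocount, no or a higher filter, rescaling to the same sum, quantile normalization, no trend, the replicate label as a block, removal of a length trend, and leaving out each library.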

Additional observations from a re-analysis of the deposited data

Results flagged for a closer look

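In 4 members every library labelled Arid1a KO lay on one side of the controls in the epithelium and every knockout library on the other side in Myc-CaP. The log2 fold change of Myc was -0.38 in the epithelium and 0.30 in Myc-CaP, that of Mxd4 was -0.46 and 0.61, that of Mxi1 was 0.41 and -0.33, and that of Mnt was 0.49 and -0.11. The difference between the systems was not tested, and 19.2% of all genes tested in both tables had the same pattern.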

How the results depend on the processing

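In the epithelium, 116 of 124 member values under alternatives kept their direction and their side of the threshold, 3 lost the call (all for Myc) and 4 gained it (3 for Mycl, 1 for Max). In Myc-CaP 86 of 95 kept both, with 5 calls lost (all for Mxd4) and 1 gained (Myc). Changes of sign were limited to values called in neither fit, with a library left out: Mxd3 in the epithelium (0.04 to -0.09 without control library C), and in Myc-CaP Mxd3 (-0.10 to 0.04 without empty vector library 1) and Mga (-0.09 to 0.02 without empty vector library 2 and 0.07 without knockout library 1). In Myc-CaP the count of members called, 1 in the main analysis, was 0 with no filter on low values, 2 with the replicate block (Mxd4, and Myc with adjusted p = 0.0227) and 0 to 0 when single libraries were left out, where the group with 1 library was assumed to vary like the other. The count over all genes in Myc-CaP, 899, was then 47 to 76, was 358 with no filter, 451 with no trend and 2771 with the block. In the epithelium it was 9294, and 5872 with a minimum mean of 5 RPKM, where fewer genes were tested. The cause of the other changes was not tested. Same-numbered libraries did not deviate together in the epithelium (r = 0.0409, 0.00944 and -0.0573), and not every library correlated best with its own letter. In Myc-CaP r was 0.195 with 2 pairs, which does not establish a pairing. There the block gave 14 calls among Myc-activated targets in place of 0 and 8 among proliferation genes in place of 1. Of the list counts, 122 of 126 in the epithelium and 74 of 108 in Myc-CaP stayed within 1.5 times. Depth limits Mycn in the epithelium and Mycl and Mycn in Myc-CaP.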
